A study of Mus musculus with 90 samples.

Results

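The major histocompatibility complex (MHC) class II genes H2-Aa, H2-Ab1 and H2-Eb1, the invariant chain gene Cd74, the peptide exchange factor genes H2-DMa and H2-DMb1, and the class II transactivator gene Ciita were followed across 8 groups of mouse brain arrays. Members were taken as every probe whose gene symbol in the platform annotation was one of these 7. That gave 10 probes of 6 genes, out of 25697 probes on the array and 13076 named gene symbols, and no probe carried the symbol of Ciita, which was therefore not measured here. H2-Ab1 had 4 probes, Cd74 had 2 and the other genes had 1 each.

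The arrays were hybridised with RNA from the hippocampus (44 arrays) or the frontal cortex (46 arrays) of 47 APP/PS1 mice, which model the amyloid pathology of Alzheimer disease through 2 transgenes, so every group carried the APP and PS1 transgenes and none was without them. Each mouse received an antisense oligonucleotide (ASO), either the CD33-specific ASO or the non-target Control ASO, at 40 µg per day in 6 µL per day through a cannula into the right lateral ventricle, and tissue came from the left hemisphere. Infusion ran for 14 or 28 days from an age of 18 weeks, and every mouse was killed at 22 weeks. Pumps of the 14-day mice were taken out after infusion and those of the 28-day mice were exchanged, so the 2 durations also differ in the second operation and in the time without a pump. For each ASO there were 9 hippocampal and 9 cortical arrays at 14 days, with 13 hippocampal and 14 cortical arrays at 28 days, and each array of a group came from a different mouse.

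MHC class II molecules present peptides from the endocytic pathway to CD4+ T cells. An alpha and a beta chain pair in the endoplasmic reticulum with the invariant chain, which blocks the groove and directs the complex to endosomes, where proteases trim it and the DM molecule exchanges the remaining fragment for peptide. Transcription of these genes depends on CIITA, a coactivator induced by interferon gamma, which docks on factors bound to the X and Y boxes of their promoters. In the healthy brain, class II is found mainly on macrophages of the meninges, perivascular spaces and choroid plexus, and microglia carry little of it until they are activated.

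Promoter sequence from RefSeq is shown for 4 of the 7 members, H2-Aa, H2-Eb1, H2-DMb1 and H2-DMa. The first 2 of these fell with the CD33 ASO in the frontal cortex at 28 days, while the last 2 did not pass the test. No entry was at hand for H2-Ab1 or Ciita, and Cd74 was left out of the display. H2-Ab1 and Cd74 also fell there, so the genes shown are not all of those that fell. Each line gives the 110 bases before an annotated transcription start, 5′ to 3′ on the gene's strand. Capitals mark matches on either strand to CTNGNAAC, letters of the X box, and to TGATTGG, letters of the Y box, patterns chosen with these promoters in view.
H2-Aa (GRCm38.p6, chr17:34287824-34287933, minus strand): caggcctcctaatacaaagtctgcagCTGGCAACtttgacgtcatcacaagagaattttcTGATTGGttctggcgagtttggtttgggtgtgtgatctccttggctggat
H2-Eb1 (GRCm38.p6, chr17:34305757-34305866, plus strand): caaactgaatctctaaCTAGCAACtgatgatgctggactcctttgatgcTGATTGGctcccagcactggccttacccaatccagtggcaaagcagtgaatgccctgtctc
H2-DMb1 (GRCm38.p6, chr17:34153081-34153190, plus strand): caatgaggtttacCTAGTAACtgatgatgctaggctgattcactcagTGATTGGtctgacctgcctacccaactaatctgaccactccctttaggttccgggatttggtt
H2-DMa (GRCm38.p6, chr17:34122722-34122831, plus strand): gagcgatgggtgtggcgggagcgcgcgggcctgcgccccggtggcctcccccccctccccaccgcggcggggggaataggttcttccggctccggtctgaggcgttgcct
The H2-Aa, H2-Eb1 and H2-DMb1 stretches held both patterns in the same order, with 26, 25 and 26 bases between them. Neither pattern occurred before the start of H2-DMa shown or before its second annotated start. Over 32841 promoter stretches of the same length, 4.89% held the X-like letters, 4.95% the Y-like letters and 0.247% both, and 0.0579% held the X-like letters followed by the Y-like letters on 1 strand. Matches describe letters and say nothing of what was bound in these samples. H2-DMb1 shares this arrangement with H2-Aa and H2-Eb1, and the relation of these letters to the levels below was not tested.

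All 10 probes passed the detection filter (detection p-value under 0.01 on at least 9 of 90 arrays), which kept 14081 probes. Both Cd74 probes and the H2-DMa probe were detected on 90 arrays, the H2-Ab1 probes on 85 to 90, H2-DMb1 on 89, H2-Eb1 on 87 and H2-Aa on 71. H2-Aa was the dimmest against background, and in the hippocampus it was detected on 5 of 13 CD33 ASO arrays and 11 of 13 control ASO arrays at 28 days, so its fold changes there are pulled toward 0. Where a gene had several probes, the one with the highest mean is given first. All levels are log2 normalized intensities, which compare arrays for 1 probe and not 1 gene with another.

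Cd33, the targeted gene, had mean levels of 5.32 with the CD33 ASO and 6.61 with the control ASO in the hippocampus at 14 days, and 5.15 and 6.60 at 28 days. Cortical means were 6.35 and 7.04 at 14 days and 6.08 and 6.98 at 28 days. Both hippocampal differences and the cortical difference at 28 days passed the test over all probes (limma adjusted p = 3.9e-05, 7.4e-09 and 5.4e-05), and the cortical one at 14 days did not (adjusted p = 0.38). With the CD33 ASO, Cd33 was detected on 2 of 9 hippocampal arrays at 14 days and on 1 of 13 at 28 days. One mouse labelled CD33 ASO, 28 days (replicate 11 in the hippocampus, 12 in the frontal cortex) had Cd33 in the control range in both tissues, and results at 28 days are also given without it. Between 42.8% and 51.6% of probes were detected per array, and arrays came from 12 chips, each with 1 tissue. Of 4 tested hippocampal markers, 3 were lower in the frontal cortex. The cortical pieces were higher in all 4 tested striatal markers, with a median difference of 3.02 on the log2 scale in control mice.

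**Figure D1:**
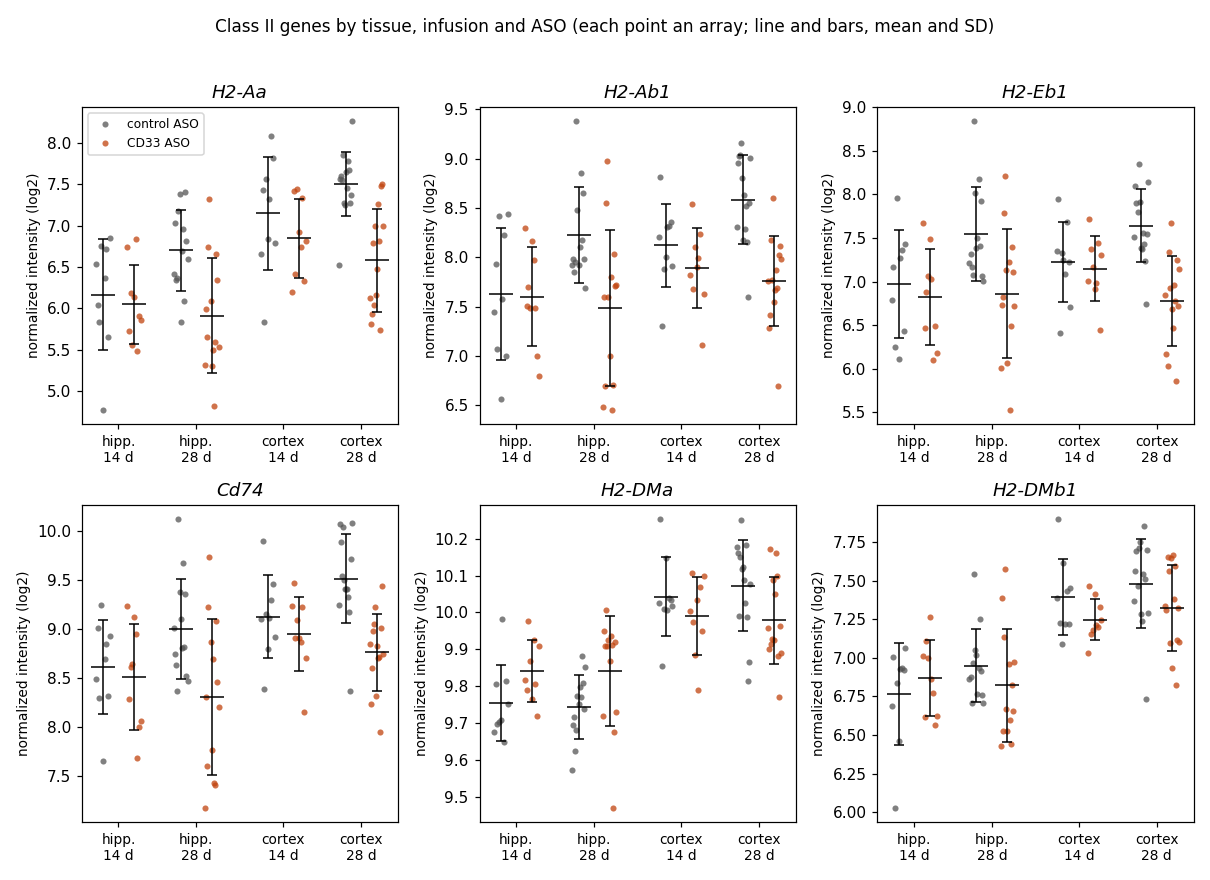
Log2 normalized intensity (vertical axes, a separate range for each gene) of the main probe of 6 genes on every array, by tissue and days of infusion, with grey points for the control ASO, orange points for the CD33 ASO, and the mean and SD of each group in black. At 28 days in the frontal cortex the CD33 ASO points of H2-Aa, H2-Ab1, H2-Eb1 and Cd74 sit lower than the control points but overlap them, and those of H2-DMa and H2-DMb1 differ little.

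In the frontal cortex after 28 days of infusion, the chains of class II and the invariant chain were lower with the CD33 ASO than with the control ASO. Of the 10 probes, 7 fell, from 4 genes (H2-Aa, H2-Ab1, H2-Eb1 and Cd74), and none rose. Levels fell to between 52.6% and 60.0% of control for those 7 probes. Over all 14081 probes, 49 passed at adjusted p under 0.05 and 33 of these were lower, so that 0.234% of probes were called lower. Neither gene of the DM molecule passed. In whole tissue, fewer cells that carry these transcripts and less of the transcript per cell cannot be told apart.

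H2-Aa, the alpha chain of the I-A molecule, lay between 6.52 and 8.26 (median 7.55) on 14 control arrays and between 5.73 and 7.50 (median 6.63) on 14 CD33 ASO arrays. All 14 CD33 ASO arrays were below the control median and 7 of them were below every control array, while the groups overlapped. The gene fell by 0.93 ± 0.20 (SE; 95% interval -1.33 to -0.53, limma adjusted p = 0.012). H2-Ab1, the beta chain that pairs with it, ranged from 7.59 to 9.16 (median 8.59) on control arrays and from 6.70 to 8.60 (median 7.77) on CD33 ASO arrays. Of the latter, 13 of 14 were below the control median and 4 were below every control array. It fell by 0.83 ± 0.16 (adjusted p = 0.0026) on the main probe. The probes ILMN_2631423 and ILMN_2607675 of H2-Ab1 fell by 0.79 ± 0.16 and 0.74 ± 0.16 (adjusted p = 0.0032 and 0.015). Its dimmest probe, ILMN_2913716, differed by -0.53 ± 0.14 and did not pass (adjusted p = 0.083), though all 14 CD33 ASO arrays were below the control median there too.

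H2-Eb1, the beta chain of the I-E molecule, ranged from 6.75 to 8.35 (median 7.55) on control arrays and from 5.85 to 7.68 (median 6.81) on CD33 ASO arrays. With 13 of 14 CD33 ASO arrays below the control median and 6 below every control array, it fell by 0.87 ± 0.16 (adjusted p = 0.0024). Cd74, whose product also serves as a receptor for the cytokine MIF, ranged from 8.37 to 10.09 (median 9.46) on control arrays and from 7.95 to 9.44 (median 8.78) on CD33 ASO arrays. All 14 CD33 ASO arrays were below the control median, and 3 were below every control array. It fell by 0.75 ± 0.15 on each of its 2 probes (adjusted p = 0.0052 for both).

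The DM genes stayed closer to control. H2-DMa, the alpha chain of the DM molecule, had a mean of 9.98 ± 0.12 (SD, n = 14) after CD33 ASO infusion against 10.07 ± 0.12 (SD, n = 14) after control ASO infusion, a difference of -0.09 ± 0.05 (SE, adjusted p = 0.58). H2-DMb1, its beta chain, had means of 7.32 ± 0.28 and 7.48 ± 0.29 (SD, n = 14 each), a difference of -0.15 ± 0.09 (adjusted p = 0.71). The 95% intervals were -0.19 to 0.00 and -0.34 to 0.04. Both stop short of the main-probe intervals of H2-Aa, H2-Ab1, H2-Eb1 and Cd74, whose upper ends lay between -0.54 and -0.44. The interval of the H2-Ab1 probe ILMN_2913716, -0.82 to -0.25, overlapped that of H2-DMb1. The difference between genes was not tested.

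On their main probes, the 4 genes that fell were also lower with the CD33 ASO within 6 of 6 cortical chips at 28 days, with differences of -1.49 to -0.29 over genes and chips. The H2-Ab1 probes ILMN_2607675 and ILMN_2913716 were lower on 5 of 6, with highest differences of 0.08 and 0.04. The main probes of H2-Aa, H2-Ab1, H2-Eb1 and Cd74 passed in 28 of 28 fits that each left out 1 array. Without the mouse with control-range Cd33, 7 probes passed again, H2-Aa fell by 1.00 and H2-Eb1 fell by 0.90. In 2 fits with marker means of other cells as covariates no member passed. Lum, a mural cell and fibroblast marker, and Ms4a7, a border macrophage marker, themselves fell with the CD33 ASO in the cortex. Such fits therefore cannot assign a part of the differences to other cells. With the mean levels of choroid plexus, red blood cell, and mural cell and fibroblast markers as covariates, 0 of 10 probes passed, and H2-Aa, H2-Ab1, H2-Eb1 and Cd74 differed by -0.64, -0.60, -0.59 and -0.54 (limma adjusted p = 0.24, 0.09, 0.095 and 0.14). With the mean level of border macrophage markers as covariate, 0 of 10 passed, with differences of -0.60, -0.51, -0.56 and -0.45 (adjusted p = 0.21, 0.10, 0.087 and 0.15).

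**Figure D2:**
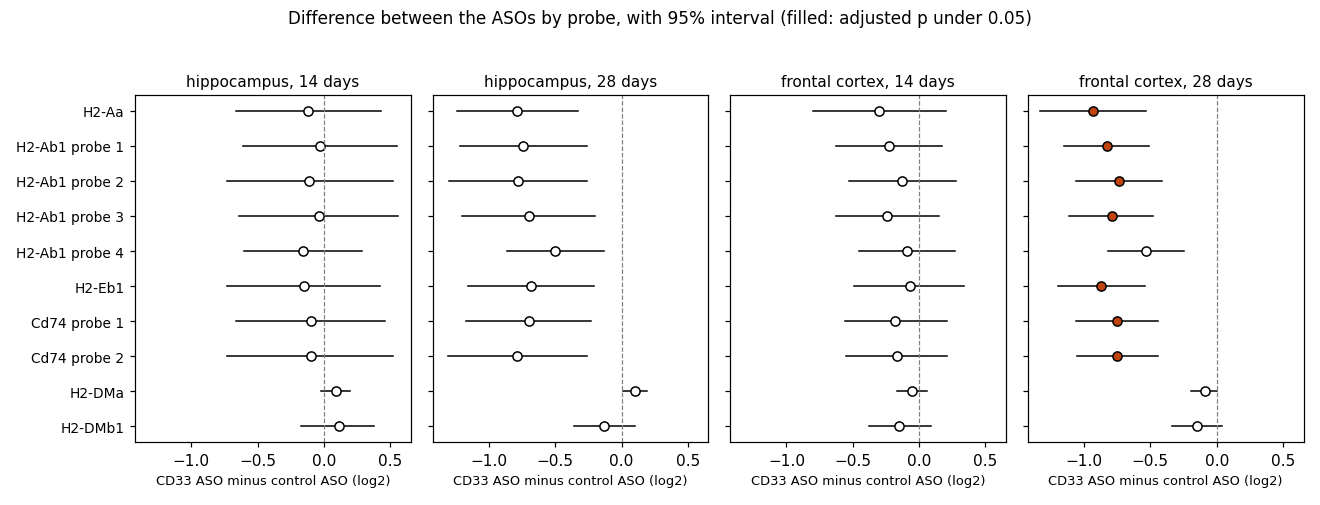
Difference between the ASOs in log2 normalized intensity (horizontal axes) for each of 10 probes in 4 comparisons, with 95% intervals as lines and filled points for adjusted p under 0.05. Filled points appear in the frontal cortex at 28 days alone, for 7 probes, and the hippocampal estimates at 28 days have a similar size with wider intervals.

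In the hippocampus at 28 days the same 4 genes had mean levels 0.68 to 0.79 lower with the CD33 ASO on their main probes, but none of the 10 probes passed over all probes. There, 45 of the 14081 probes passed (0.32%), 27 of them lower. At an unadjusted limma p under 0.05, 8 of the 10 probes were lower and 1 was higher, against 3.59% and 5.29% of all probes. The 8 lower probes were those of the same 4 genes, which vary together, so they are not 8 separate results.

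Hippocampal H2-Aa ranged from 5.83 to 7.41 (median 6.69) on 13 control arrays and from 4.82 to 7.32 (median 5.65) on 13 CD33 ASO arrays, a difference of -0.79 ± 0.23 (adjusted p = 0.16). H2-Ab1 ranged from 7.69 to 9.38 (median 7.98) and from 6.45 to 8.98 (median 7.60), a difference of -0.74 ± 0.24 (adjusted p = 0.24). In both genes 7 of 13 CD33 ASO arrays were below every control array, while others reached well into the control range. H2-Eb1 ranged from 7.01 to 8.84 (median 7.39) with the control ASO and from 5.52 to 8.21 (median 6.82) with the CD33 ASO, a difference of -0.68 ± 0.24 (adjusted p = 0.30). Cd74 ranged from 8.37 to 10.12 (median 8.82) and from 7.18 to 9.74 (median 8.30), a difference of -0.70 ± 0.23 (adjusted p = 0.26). The CD33 ASO arrays varied more widely than the control arrays, with an SD of 0.80 against 0.51 for Cd74. The 3 further H2-Ab1 probes differed by -0.50 to -0.78 and the second Cd74 probe by -0.79 ± 0.26 (adjusted p = 0.26).

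Mean H2-DMa lay above control in the hippocampus. Its level ranged from 9.57 to 9.88 (median 9.75) with the control ASO and from 9.47 to 10.01 (median 9.91) with the CD33 ASO, and 8 of 13 CD33 ASO arrays were above every control array, but the difference of 0.10 ± 0.05 did not pass (adjusted p = 0.51). H2-DMb1 differed by -0.13 ± 0.11 (adjusted p = 0.82), with 7 of 13 CD33 ASO arrays below every control array and 1 above every control array. Without the mouse with control-range Cd33, 0 probes passed and the differences of H2-Aa and H2-Ab1 were -0.85 and -0.79. Leaving out replicate 5 of the CD33 ASO group brought H2-Aa past the threshold (adjusted p = 0.039), and over the 26 such fits its adjusted p ran up to 0.27. With the border macrophage mean as covariate, the hippocampal differences of H2-Ab1, H2-Eb1 and Cd74 changed sign, to 0.15, 0.16 and 0.11. Ms4a7, Cbr2 and Mrc1, which enter that mean, were themselves lower with the CD33 ASO there, so the part of those cells was not tested.

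No probe passed at 14 days in either tissue. In the hippocampus, where 2 of all probes passed (0.0142%), H2-Aa, H2-Ab1, H2-Eb1 and Cd74 differed by -0.12, -0.03, -0.15 and -0.10, with standard errors of 0.27 to 0.29. Cortical values, where 0 of all probes passed (0%), differed by -0.30 ± 0.25, -0.23 ± 0.20, -0.07 ± 0.21 and -0.18 ± 0.19. No member probe of either tissue had an unadjusted limma p under 0.05 at 14 days, against 5.69% of all probes in the hippocampus and 5.47% in the cortex. The 95% intervals on the main probes of H2-Aa, H2-Ab1, H2-Eb1 and Cd74 reached down to -0.66, -0.61, -0.73 and -0.66 in the hippocampus and to -0.80, -0.63, -0.49 and -0.56 in the cortex. Hippocampal H2-Eb1 was the only one of these whose interval took in its estimate at 28 days. Such a reading leaves out the error of the 28-day estimates and is not a test of a change between the durations, which is given below. Averaged over both durations, 2 probes of H2-Ab1 passed in the frontal cortex, where 85 of all probes passed (0.348% of probes lower), and 0 passed in the hippocampus (0.234% lower). That cortical count depended on the fit. With the chip as a block 7 probes passed, H2-Aa, H2-Eb1 and Cd74 among them (adjusted p = 0.027, 0.03 and 0.025), and without the filter on dim probes 0 did.

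The change of the ASO difference between the durations was tested directly, and 0 of 10 probes passed in either tissue, as did 0 of all probes (0%). Cortical H2-Eb1 had the lowest unadjusted p, with a difference 0.80 lower at 28 days than at 14 days, given as -0.80 ± 0.26 (unadjusted limma p = 0.0041, adjusted p = 1). In that direction 6 of 10 probes were below an unadjusted p of 0.05 in the frontal cortex, against 1.34% of all probes, and 0 in the hippocampus, against 1.88%. Those 6 were probes of H2-Ab1, H2-Eb1 and Cd74, which vary together, so they are not 6 separate results.

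The 28-day arrays were also set against the 14-day arrays within each ASO, where mean class II levels were higher at 28 days with the control ASO. H2-Ab1 differed by 0.60 ± 0.26 in the hippocampus (adjusted p = 0.38) and by 0.46 ± 0.18 in the cortex (adjusted p = 1). H2-Eb1 differed by 0.57 ± 0.26 and 0.42 ± 0.19, Cd74 by 0.39 ± 0.26 and 0.39 ± 0.17, and H2-Aa by 0.53 ± 0.25 and 0.36 ± 0.23. None of the 10 probes passed, against 0.0426% of all probes in the hippocampus and 0% in the cortex. At an unadjusted limma p under 0.05, 5 were higher in the hippocampus (5.51% of all probes) and 6 in the cortex (2.54%). Several of these were probes of H2-Ab1, and probes of 1 gene are not separate results. With the CD33 ASO the same 4 genes differed by -0.21 to 0.04 in the hippocampus and by -0.38 to -0.13 in the frontal cortex, with 0 of 10 past the threshold, as over all probes (0%). With p rounded to 2 digits, 0 members had an unadjusted limma p under 0.05, against 9.72% and 4.87% of all probes. Cortical H2-Eb1 lay at that bound (-0.38 ± 0.19, unadjusted limma p = 0.05). The control arrays at 28 days enter both this comparison and that of the ASOs, so these values are not separate evidence. H2-DMa differed by -0.01 to 0.03 between durations in all 4 sets.

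Levels were compared between tissues in a model of 90 arrays with the mouse as a random block. In control ASO mice, 7 of 10 probes were higher in the frontal cortex than in the hippocampus, against 29.1% of all probes. H2-Aa was 0.89 ± 0.16 higher (adjusted p = 1.0e-06), H2-DMb1 0.58 ± 0.08 (adjusted p = 3.8e-10), Cd74 0.51 ± 0.14 (adjusted p = 0.0014), H2-Ab1 0.42 ± 0.15 (adjusted p = 0.010) and H2-DMa 0.31 ± 0.03 (adjusted p = 8.7e-14). H2-Eb1 differed by 0.17 ± 0.15 and did not pass (adjusted p = 0.32). The H2-Ab1 probes ILMN_2607675 and ILMN_2913716 did not pass either (limma adjusted p = 0.18 and 0.23). Each chip held 1 tissue, so the chip and the tissue cannot be told apart in these differences. Microglial markers were also higher in the frontal cortex, 9 of 10 tested, with a median difference of 0.59, and choroid plexus markers were lower there, 8 of 8, with a median of -2.36. The part of either in the differences was not tested.

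Within single control mice, main probes of H2-DMa were higher in the frontal cortex in 22 of 22, H2-DMb1 in 20, H2-Aa in 19 and both Cd74 and H2-Ab1 in 16. The other H2-Ab1 probes were higher there in 12, 14 and 15. H2-Eb1 was higher in the cortex in 11 of 22, with a median difference of 0.01. In CD33 ASO mice, 5 of 10 probes were higher in the frontal cortex, against 28.7% of all probes, from H2-Aa (0.74 ± 0.16), Cd74 (both probes, 0.45 ± 0.15 and 0.55 ± 0.16), H2-DMb1 (0.44 ± 0.08) and H2-DMa (0.14 ± 0.03). H2-Ab1 did not pass there (0.28 ± 0.15, adjusted p = 0.099). That count rose to 9 when arrays were normalized by quantiles within each tissue.

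**Figure D3:**
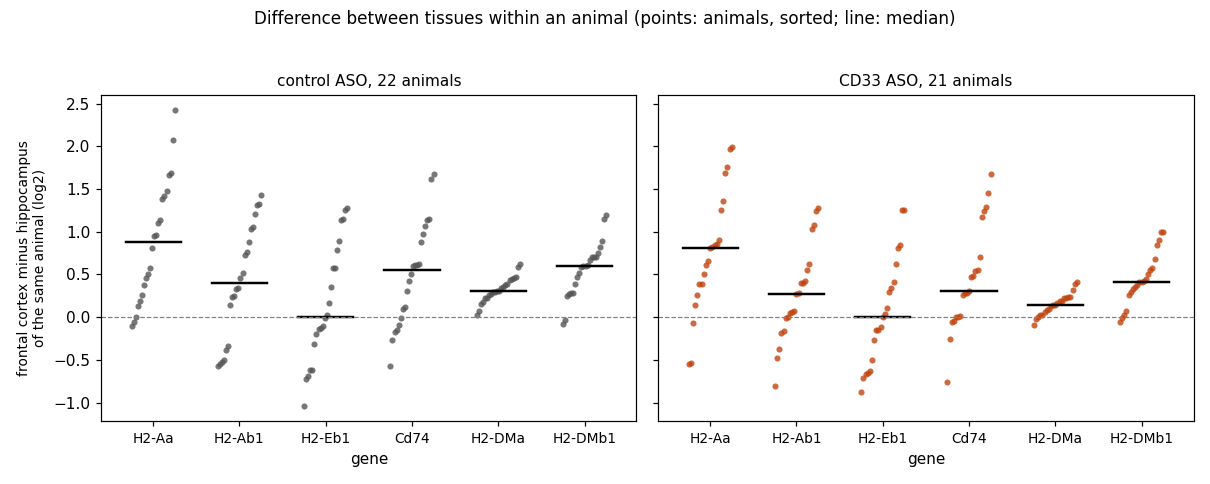
Log2 normalized intensity in the frontal cortex minus that in the hippocampus of the same mouse (vertical axis) for 6 genes, with 22 control ASO mice at left, 21 CD33 ASO mice at right, points sorted by value and black lines at the median. H2-DMa points form a narrow band above 0 in control mice, while H2-Eb1 points spread evenly to both sides of 0.

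The ASO difference itself did not differ detectably between the tissues. Of the 10 probes, 0 passed at either duration, as did 0 of all probes (0%), and at an unadjusted limma p under 0.05 there was 1 at 28 days (4.79% of all probes) and 0 at 14 days (4.64%). At 28 days the ASO difference in the frontal cortex minus that in the hippocampus was -0.13 ± 0.29 for H2-Aa, -0.08 ± 0.27 for H2-Ab1, -0.18 ± 0.27 for H2-Eb1 and -0.05 ± 0.26 for Cd74. The passing of 4 genes in the cortex and of none in the hippocampus does not show a difference between tissues. H2-DMa had the lowest unadjusted p, with -0.19 ± 0.06 (unadjusted limma p = 0.0016, adjusted p = 0.88), from ASO differences of -0.09 and 0.10.

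Taking each group mean away, class II genes varied together from mouse to mouse. Over 44 hippocampal arrays, Pearson's r was 0.92 between H2-Ab1 and Cd74 (Spearman's rho = 0.91), 0.93 between H2-Eb1 and Cd74 (rho = 0.92), and 0.92 between H2-Ab1 and H2-Eb1 (rho = 0.91). H2-Aa correlated with these 3 at r = 0.76 to 0.80. Each had a permutation p of 1.0e-05, the smallest that 100000 permutations can give, and an adjusted p of 2.3e-05 over the 30 pairs of both tissues. Without the 2 arrays farthest from the median, r between H2-Ab1 and Cd74 was 0.90, and with chip means removed it was 0.93.

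H2-DMb1 followed the group at r = 0.70 to 0.75 with H2-Ab1, H2-Eb1 and Cd74 in the hippocampus, whereas H2-DMa had r = 0.13 to 0.31 with every other member and no pair passed (adjusted permutation p from 0.085 to 0.47). Over the 46 cortical arrays, H2-Ab1 correlated with Cd74 at r = 0.90 (rho = 0.86) and with H2-Eb1 at r = 0.88 (rho = 0.82). H2-Aa was looser there, with r = 0.61 to 0.66. Correlations of H2-DMb1 with H2-Ab1, H2-Eb1 and Cd74 (r = 0.49, 0.38 and 0.45) rested on few arrays, as r was 0.29, 0.18 and 0.22 without the 2 farthest. Cortical H2-DMa had r = 0.39, 0.37 and 0.38 with the same genes (adjusted permutation p = 0.015, 0.021 and 0.018). Without the 2 farthest arrays these were 0.27, 0.26 and 0.24, and by rho they did not pass. With H2-DMb1 it had r = 0.58 (adjusted permutation p = 1.9e-04), and with H2-Aa 0.15. Of 15 pairs per tissue, 10 hippocampal and 13 cortical ones had an adjusted p under 0.05 by Pearson's r, and 10 and 7 by Spearman's rho. Different probes of 1 gene correlated at r = 0.84 to 0.95.

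**Figure D4:**
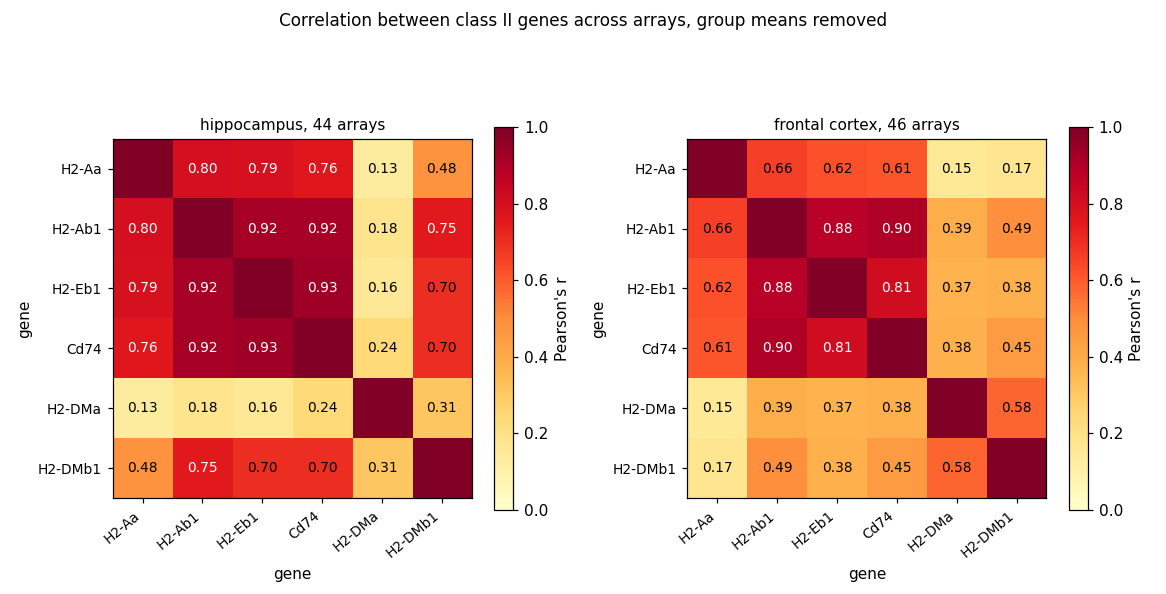
Pearson's r between the main probes of 6 genes (both axes list the genes, darker cells are higher r) across 44 hippocampal arrays at left and 46 cortical arrays at right, after the mean of each group was removed. H2-Ab1, H2-Eb1 and Cd74 form a block with r from 0.81 to 0.93, and the row of H2-DMa is pale in the hippocampus.

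A mouse high in class II in one tissue was not detectably high in the other. Of 8 relations between the hippocampal and cortical level of a gene, 4 genes by 2 ASOs, none passed adjustment. The highest was H2-Ab1 in 21 CD33 ASO mice, with r = 0.54 (permutation p = 0.012, adjusted p = 0.10) and rho = 0.57 (permutation p = 0.0094, adjusted p = 0.076), and r = 0.55 without the 2 farthest mice. In 22 control mice the 4 genes had r = 0.03 to 0.14. Relations between class II levels and the Cd33 level within an ASO were also computed, 16 in all, and those of hippocampal CD33 ASO arrays are not read here because Cd33 was mostly undetected there. The others gave r from -0.32 to 0.31, each with an adjusted permutation p of 0.85.

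Among 9735 other genes, 1 probe each, the profile most like the mean of H2-Aa, H2-Ab1, H2-Eb1 and Cd74, group means removed, was that of Ms4a7 in the hippocampus, with r = 0.84 over 44 arrays. Ms4a7 is a membrane protein gene used as a marker of border macrophages. Another such marker, Mrc1, the mannose receptor gene, ranked 671 in the hippocampus (r = 0.36) and 50 in the frontal cortex (r = 0.51). Lyz1 (r = 0.82) and Lyz2 (r = 0.79), the lysozyme genes, followed, with Mgp (r = 0.79), which encodes matrix Gla protein, and Serping1 (r = 0.78), which encodes the C1 inhibitor. Over 46 cortical arrays, the closest were Igfbp2 (r = 0.74), an insulin-like growth factor binding protein gene, Slc13a4 (r = 0.72), a sulfate transporter gene, Igf2 (r = 0.71), Mmp2 (r = 0.69), a matrix metalloprotease gene, and Ms4a7 (r = 0.68). These correlations are descriptions over arrays that share chips. The microglial genes Tmem119 and P2ry12 had r = 0.28 and -0.05 in the hippocampus, and Tmem119 had 0.01 in the frontal cortex.

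Several of these genes also differed between the ASOs at 28 days. Ms4a7 fell by 1.08 ± 0.21 in the hippocampus (adjusted p = 0.0053) and by 0.82 ± 0.14 in the frontal cortex (adjusted p = 6.9e-04). Lyz2 fell by 0.87 ± 0.17 and 0.50 ± 0.10 (adjusted p = 0.0043 and 0.0026), and Lyz1 by 0.71 ± 0.16 and 0.47 ± 0.08 (adjusted p = 0.024 and 7.2e-04). Igfbp2, Slc13a4, Igf2, Mmp2, Mgp and Serping1 passed in neither tissue. Cortical Igfbp2 and Igf2 differed by 0.15 ± 0.11 and 0.04 ± 0.13, a sign opposite to that of the class II genes. No gene named here passed at 14 days. Ms4a7 was then lower by 0.90 ± 0.25 (hippocampus, limma adjusted p = 0.41) and 0.52 ± 0.18 (cortex, adjusted p = 0.75). Main probes of H2-Aa, H2-Ab1, H2-Eb1 and Cd74 lay between -0.15 and -0.03 (hippocampus) and between -0.30 and -0.07 (cortex) at 14 days. Whether Ms4a7 and class II differ in their course over time was not tested.

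Markers of other cells were read beside these results. Of 5 tested border macrophage markers, 3 were lower in the hippocampus at 28 days, Ms4a7, Cbr2 (-0.79 ± 0.14) and Mrc1 (-0.73 ± 0.13), while Pf4 and Stab1 differed by -0.06 and 0.09. Of the same 5 in the cortex, 1 was lower, Ms4a7. The log2 of their summed intensity ranged from 8.99 to 9.90 with the control ASO and from 8.26 to 9.20 with the CD33 ASO in the hippocampus at 28 days. The cortical ranges were 9.05 to 9.77 and 8.59 to 9.51. The border macrophage markers Lyve1 and Clec10a were detected on 0 arrays.

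None of 10 tested microglial markers passed in either tissue at 28 days, with medians of 0.05 (hippocampus) and -0.03 (frontal cortex). The 8 choroid plexus markers, none of which passed, had a median of -0.68 in the hippocampus with 8 of 8 below 0, and -0.07 in the frontal cortex. The log2 of their summed intensity varied from 11.31 to 15.58 over hippocampal arrays of the CD33 ASO at 28 days and from 11.62 to 15.50 over those of the control ASO. Over cortical arrays it was 9.48 to 10.53 and 9.44 to 10.44. The 2 tested red blood cell markers had medians of -0.70 and -0.38, with neither past the threshold. Of endothelial markers, Vwf fell in both tissues (-0.92 ± 0.16 and -0.65 ± 0.09) and Ly6c1 in the hippocampus (-0.28 ± 0.06), and of mural cell and fibroblast markers Lum fell in the frontal cortex (-0.53 ± 0.12). Some markers that enter the covariate fits, Ms4a7 and Lum among them, themselves differed between the ASOs. Those fits cannot assign a part to any cell, and the part of these cells in the class II differences was not tested.

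Markers of B cells, dendritic cells, T cells and monocytes, some of which can carry class II, were also read. The B cell markers Cd79a, Ms4a1 and Cd22, the dendritic cell markers Itgax, Xcr1 and Ccr7 and the T cell marker Cd3d were detected on 0 of 90 arrays. The log2 summed intensity of the 2 tested dendritic cell markers at 28 days in the frontal cortex was 6.57 to 7.62 with the control ASO and 6.79 to 7.35 with the CD33 ASO. The 2 tested T cell markers gave 6.27 to 7.07 and 6.02 to 7.05 there. For the 1 tested B cell marker the values were 4.91 to 5.79 and 5.04 to 6.03, and for the 1 tested monocyte marker 5.58 to 7.47 and 5.19 to 6.17. Hippocampal ranges overlapped between the ASOs for all 4 kinds. The monocyte marker, Plac8, differed between the ASOs at 28 days by -0.55 ± 0.17 in the hippocampus (adjusted p = 0.24) and -0.40 ± 0.15 in the frontal cortex (adjusted p = 0.34), and at 14 days by 0.08 ± 0.21 and 0.06 ± 0.18. Between 28 and 14 days of control ASO it differed by 0.57 and 0.43, and it passed in none of these. The 1 tested neutrophil marker, S100a8, reached 10.58 (median 5.52) on hippocampal and 10.63 (median 5.89) on cortical control arrays at 28 days. With the CD33 ASO its highest values there were 6.76 and 6.45, and it passed in neither tissue. The part of these cells in the class II differences was not tested.

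Genes that work with the members did not pass in any of the 4 ASO comparisons. Few probes of any kind did, 0.32% of all probes in the hippocampus at 28 days and 0.0142% at 14 days. In the frontal cortex 0.234% were called lower at 28 days and 0% passed at 14 days. Of 20 listed class II pathway genes, 15 were tested and 0 passed in either direction, with 28-day medians of -0.01 (hippocampus) and 0.01 (frontal cortex). The medians over all probes were 0.01 and 0.00. The lowest p at 28 days in the cortex belonged to Nfyc, a subunit of the Y box factor NF-Y (0.10 ± 0.04, adjusted p = 0.39), and Creb1, a factor of the X2 element (0.16 ± 0.07, adjusted p = 0.51). Hippocampal values at 28 days were led by Rfxap, a subunit of the X box factor RFX (0.07 ± 0.04, adjusted p = 0.67), and Creb1 (0.07 ± 0.05, adjusted p = 0.75). At 14 days they were led in the hippocampus by H2-Oa and H2-Ob, the chains of the DM inhibitor (0.33 ± 0.15 and 0.28 ± 0.14, adjusted p = 0.87 and 0.88). At 14 days in the cortex Rfxank, another RFX subunit, and Nfyb, another NF-Y subunit, came first (0.21 ± 0.14 and 0.11 ± 0.08, adjusted p = 0.94 and 0.96). Probes of H2-DMb2, H2-Eb2, Ctsl, Rfx5 and Cd80 were detected on 0 arrays.

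Of 11 listed genes of class II induction by interferon gamma, 7 were tested and 0 passed in any ASO comparison. The shares of all probes that passed were the low ones given for the pathway genes. Medians at 28 days were 0.05 (hippocampus) and -0.10 (frontal cortex). Ifngr1, the ligand-binding chain of the interferon gamma receptor, differed by 0.10 ± 0.06 in the hippocampus (adjusted p = 0.71) and -0.12 ± 0.07 in the frontal cortex (adjusted p = 0.70). Next came Ifngr2, the second receptor chain, in the hippocampus (0.12 ± 0.08, adjusted p = 0.72) and Tgfb1, which restrains class II expression, in the frontal cortex (-0.10 ± 0.10, adjusted p = 0.86). At 14 days Tgfb1 and Irf1, a transcription factor of the Ciita promoter, led in the hippocampus (-0.07 ± 0.12 and 0.03 ± 0.10, adjusted p = 0.99 and 1). Cortical values at 14 days were led by Irf1 and Ifngr1 (-0.11 ± 0.09 and -0.09 ± 0.09, adjusted p = 0.96 and 0.98).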

How the data were processed

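Gene expression was measured on Illumina mouse bead arrays, 90 in all. The deposited table gives a linear signal intensity per probe and array with background already subtracted, not normalized between arrays, and the deposited detection p-value of each. The authors' second deposited table holds processed log2 values for 19542 probes, ranked within each array like the signal, and was used as an alternative. BeadStudio, GenomeStudio and Partek are named per the submitters' processing notes and no version is stated there. Median signal per array lay between 28.4 and 47.0, and the number of arrays limits the precision.

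Probes were named through the platform annotation, which can be old: 1 gene symbol was given for 18348 probes, several for 0 and none for 7349. The neqc function of limma (version 3.58.1, R 4.3.3) normalized the signals (control level from detection p-values, offset 16, quantiles over 90 arrays). The offset pulls fold changes of dim probes toward 0. Probes detected (p under 0.01) on at least 9 arrays were tested per probe with lmFit and eBayes, 2-sided, with Benjamini-Hochberg adjustment over 14081 probes and a threshold of 0.05. Each tissue had 4 group means, and contrasts between tissues used all arrays, with a random block for the animal. The fit was tested on simulated data.

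Correlations used values with group means removed and 100000 permutations within groups. Genes most like the members were the 5 of highest r per tissue. Genes of each list were named where they passed, otherwise the 2 of lowest p. The members and lists were chosen with earlier results of these data known. Alternatives covered background, normalization, filter, probes, the authors' values, chip and replicate blocks, array weights, marker covariates and single arrays. Fits without the mouse with control-range Cd33, the chip as a random block between tissues, and correlations between members were added after seeing the data. RefSeq promoters (GRCm38.p6) were read as 110 bases before the start.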

Additional observations from a re-analysis of the deposited data

Results flagged for a closer look

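Of 24 groups of 9 arrays tested with Dixon's criterion over the 6 main probes, 1 held an array far from the others, where chance gives about 1 in 20. H2-DMa in the hippocampus at 14 days with the control ASO had a highest value of 9.98, with the nearest array at 9.81, a gap of 0.51 of the group's range. The mean of that group was 9.75 ± 0.10 (SD, n = 9), and the H2-DMa comparisons that use it did not pass.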

How the results depend on the processing

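Over 216 recomputed counts, other than those leaving out 1 array, 206 stayed within the bounds set for an unchanged count. Beyond them, 5 lost and 5 gained calls. In the cortex at 28 days, 7 probes passed, against 0 with choroid plexus, blood and mural marker covariates or with the border macrophage covariate. Averaged over both durations in the cortex, 2 passed, against 0 without a filter on dim probes and 0 under either covariate fit, 7 with the chip as a block and 4 with the replicate number as a block. In the hippocampus at 28 days 0 passed, against 1 (H2-Aa) with array weights. Between tissues with the CD33 ASO 5 passed, against 9 with quantiles within each tissue and 9 with the authors' values. The cause of these shifts was not tested. Leaving out each array in turn gave 0 to 1 probes in the hippocampus and 7 to 8 in the frontal cortex at 28 days, and 0 at 14 days in both. Same-numbered replicates did not pair the samples (r from -0.23 to 0.44, best with their own number for 2 of 9 and 3 of 13 in the hippocampus and 2 of 9 and 3 of 14 in the frontal cortex), so the replicate block is given for completeness; it moved no other count of calls outside those bounds.

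Signs turned for main probes under the covariate fits, none of them past the threshold. With the border macrophage covariate, hippocampal differences at 28 days were 0.15 for H2-Ab1, 0.16 for H2-Eb1, 0.11 for Cd74 and 0.11 for H2-DMb1. At 14 days they were 0.16 for H2-Aa, 0.33 for H2-Ab1, 0.18 for H2-Eb1 and 0.23 for Cd74. Over both durations they were 0.04 for H2-Aa, 0.24 for H2-Ab1, 0.17 for H2-Eb1, 0.17 for Cd74 and 0.16 for H2-DMb1. Cortical H2-Eb1 at 14 days was 0.11. With the choroid plexus, blood and mural covariates, hippocampal H2-DMb1 was 0.05 at 28 days and 0.08 over both durations. H2-Aa in the hippocampus lies near background, which pulls its differences toward 0.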
